A study of Mus musculus with 12 samples.

Results

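The comparison set hearts of *Gata4* floxed mice against hearts of *Gata6* floxed mice, both without cre, so that neither gene was deleted in any of them. It used 4 of the 12 hearts in the series, 2 of each floxed line, chosen by their labelled genotype. Each mouse gave 1 Affymetrix gene ST array of total heart RNA, with a log2 signal for each of 35557 probesets (sets of short probes combined into 1 value per transcript). The other 8 hearts were 3 *Gata4*-deleted, 3 *Gata6*-deleted and 2 that carried cre alone. Mice of the *Gata4* floxed group (Gata4Flox in the labels, non-CRE) carried loxP sites at both *Gata4* alleles, and *Gata6* floxed mice (Gata6Flox, non-CRE) at both *Gata6* alleles. *Gata4*-deleted (Gata4_KO) and *Gata6*-deleted (Gata6_KO) mice were of the same floxed lines and carried cre as well. Cre mice had wildtype *Gata4* and *Gata6*. All were labelled as 8 weeks old and no group had pressure overload in its label. The labels give an MHCalpha transgene as the source of cre and the methods a βMHC promoter, both active in cardiomyocytes, and the conflict bears only on the hearts with cre. The inbred background of each line and the hour at which hearts were taken are not given in the sources used here.

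Deleted hearts were other mice of the same 2 lines, so they gave a second measurement of each difference in animals that the floxed comparison did not use. A difference was said to persist where *Gata4*-deleted and *Gata6*-deleted hearts differed in the same direction at an adjusted p under 0.05, and was placed between where it kept at least 0.5 of its size in the same direction without passing. All others were said not to persist. A difference that persists in this sense can still contain an effect of either deletion, since the deleted hearts differ by line and by deleted gene. Likewise, a difference that does not persist can have been removed or reversed by a deletion, and the design cannot tell such a case apart.

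Lines of mice kept apart come to differ at loci where their founder strains carried other alleles or other copy numbers, and DNA linked to a targeted gene can be carried along from the embryonic stem cells. Such differences are found in every animal of a line. The circadian clock instead changes within a day. BMAL1 (encoded by *Arntl*) and CLOCK bind E-boxes and drive the period genes, *Ciart* and output genes such as *Dbp*, while PER, CRY and CIART proteins repress that drive, so activator and repressor transcripts peak at opposite times in heart as in other tissues.

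The promoters of *Ciart* and *Per1* are shown because these clock repressors differed between floxed hearts, and the difference changed in deleted hearts. They are RefSeq sequences of GRCm38.p6, the 250 bases before the start of the gene, with the E-box CACGTG and the D-box TTATGNAA in capitals.

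*Ciart*, chr3:95882229-95882478, minus strand: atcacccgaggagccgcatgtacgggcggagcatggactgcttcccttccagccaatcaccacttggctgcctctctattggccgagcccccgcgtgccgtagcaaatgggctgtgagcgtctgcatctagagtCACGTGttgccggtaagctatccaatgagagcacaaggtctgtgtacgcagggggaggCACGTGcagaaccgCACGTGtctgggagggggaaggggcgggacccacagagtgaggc
*Per1*, chr11:69098699-69098948, plus strand: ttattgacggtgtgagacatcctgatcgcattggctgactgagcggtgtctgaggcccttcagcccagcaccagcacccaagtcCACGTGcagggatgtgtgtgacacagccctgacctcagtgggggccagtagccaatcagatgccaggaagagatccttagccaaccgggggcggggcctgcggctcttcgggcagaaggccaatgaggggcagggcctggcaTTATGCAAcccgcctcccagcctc

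The *Ciart* window held 3 E-boxes, at 116, 58 and 44 bases before the start. The *Per1* window held 1 E-box at 166 and 1 D-box at 24 bases before the start, and a second *Per1* start had neither motif in its window. Searched on both strands, the E-box was found in 6.02% and the D-box in 3.07% of all 32851 windows of this length. Of the 21 clock genes looked up, 17 had a window, of which 5 held an E-box and 2 a D-box. These counts are by gene, with a match in any of its windows, and so are not the same measure as the shares of windows. A match describes letters only, and neither motif was tested for binding here.

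Array medians lay between 5.61 and 5.66. Signals correlated across probesets at 0.989 between both *Gata4* floxed hearts, at 0.987 between both *Gata6* floxed hearts and at 0.983 to 0.988 across the lines. All 12 hearts carried cardiomyocyte markers at one level, with a summed log2 signal of 16.55 to 16.64 over 13 genes. *Gata4* floxed heart 2 stood apart most in 2 lists. Its cell cycle genes summed to 9.84 (9.01 in *Gata4* floxed heart 1, 9.19 and 9.09 in the *Gata6* floxed hearts) and its red blood cell genes to 9.37 (8.34 in heart 1, 8.46 and 8.49). Its neutrophil (8.115), fibroblast and matrix (13.88) and macrophage (11.93) markers also summed highest of all 12 hearts. The other hearts reached at most 7.922, 13.79 and 11.85 in these lists. The *Gata4* probeset read 9.26 and 9.23 in *Gata4* floxed and 9.15 and 8.98 in *Gata6* floxed hearts, a log2 difference of 0.18 (adjusted p = 0.549 by limma). The *Gata6* probeset read 8.78 and 8.76 against 9.09 and 8.69, a difference of -0.12 (adjusted p = 0.824). Thus neither targeted gene passed, in hearts that carry loxP sites at different genes. In whole-heart RNA, a change in the number of cells of a type and a change in RNA per cell cannot be told apart.

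Between the floxed lines 81 probesets differed (0.228% of 35557) by limma at a Benjamini-Hochberg adjusted p under 0.05, 36 higher (0.101%) and 45 lower (0.127%) in *Gata4* floxed hearts. Their log2 differences ran in size from 0.47 to 3.88. At an unadjusted p under 0.05 there were 3648, where chance alone gives 1777.8. Of the 81, 57 had 1 gene symbol and named 49 genes, 9 had several symbols and 15 had none, and they held 75 distinct sets of values. Between deleted hearts 384 probesets differed (1.08%; 0.394% higher and 0.686% lower in the *Gata4* line). With 2 hearts against 2 the smallest exact two-sided permutation p of a single probeset is 0.333, and the fit took its spread from all 12 arrays. The count fell to 24 or 21 when *Gata4* floxed heart 1 or 2 was left out, to 32 when *Gata6* floxed heart 2 was and to 48 when *Gata6*-deleted heart 2 was, and rose to 383 when *Gata6* floxed heart 1 was.

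Of the 81 probesets, 51 persisted (63.0%; 21 higher and 30 lower), 4 lay between (2 higher and 2 lower) and 26 did not persist (32.1%; 13 higher and 13 lower). The persisting probesets named 32 genes, the others 2 and 15. In all, 72 of the 81 (88.9%) had the same direction between deleted hearts, against 58.6% of all probesets. Among persisting probesets the deleted difference was 0.986 of the floxed one at the median (0.495 to 1.56), and among those that did not persist 0.0946 (-1.10 to 0.484), with both ranges partly set by the definition. In all 51 the 5 hearts of one line lay on one side of the 5 of the other, which the definition nearly fixes and which held for 4.73% of all probesets. The change of the line difference from floxed to deleted hearts was itself tested for every probeset and passed at 6 (0.0169%), 5 of them among the 26 and none among the 51. The number persisting fell to 16 or 17 when *Gata4* floxed heart 1 or 2 was left out and to 24 when *Gata6* floxed heart 2 was, and rose to 116 when *Gata6* floxed heart 1 was. Without 1 deleted heart it was 27 to 38, at its lowest without *Gata6*-deleted heart 2 and 31, 32 and 32 without *Gata4*-deleted heart 1, 2 and 3.

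**Figure D1:**
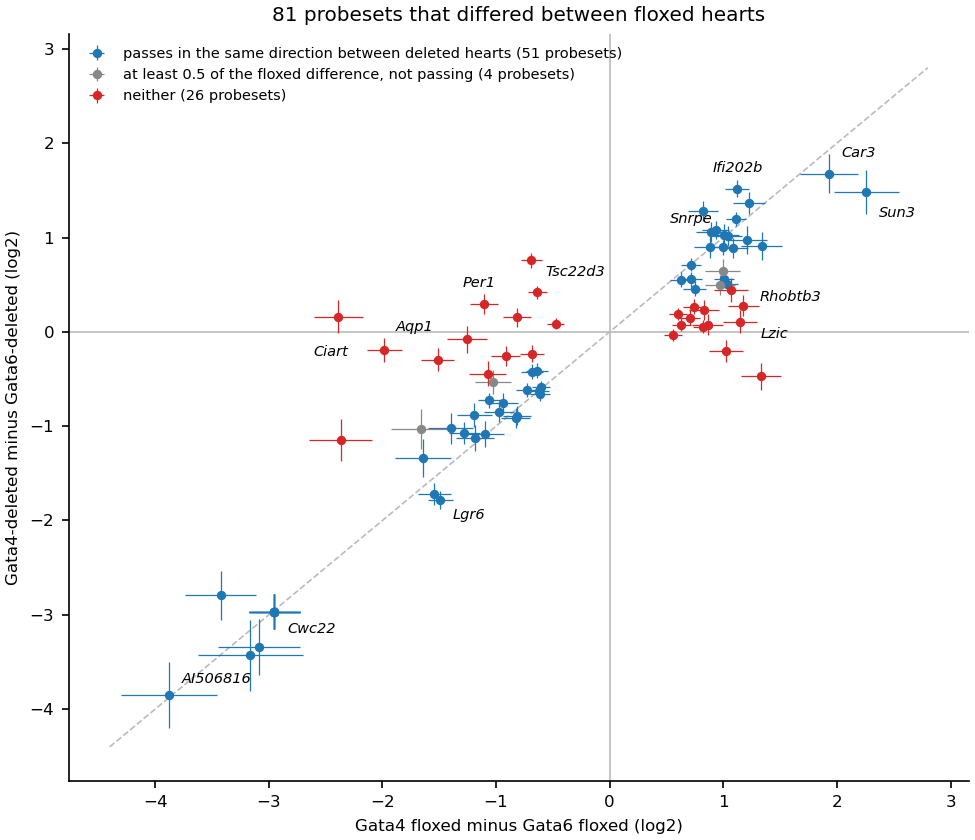
Log2 difference between the lines in floxed hearts (x axis, 2 against 2) and in deleted hearts (y axis, 3 against 3) for the 81 probesets that passed between floxed hearts, with bars of 1 standard error and the line of equal difference dashed. The 51 persisting probesets lie along that line, while *Ciart*, *Per1* and *Aqp1* lie far left of 0 on the x axis and near 0 on the y axis.

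*Cwc22* is a splicing factor whose copy number is known to vary among mouse strains. It had the largest difference among genes that kept their call whichever floxed or deleted heart was left out. It read 7.30 and 7.22 in *Gata4* floxed hearts and 10.19 and 10.24 in *Gata6* floxed hearts. In deleted hearts it read 7.04, 7.25 and 6.96 in the *Gata4* line and 9.54, 10.29 and 10.33 in the *Gata6* line. The lines were thus far apart with and without cre, and the cre hearts, at 7.64 and 7.49, lay with the *Gata4* line. The log2 difference was -2.95 (SE 0.23, 95% interval -3.46 to -2.44, adjusted p = 0.00102) between floxed and -2.97 (-3.39 to -2.55, adjusted p = 0.000125) between deleted hearts. Of its 8 probesets 7 passed, and these 7 held the same values, so they were 1 measurement, and signal from its copies cannot be told apart.

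*AI506816* was lower still in the *Gata4* line, at 3.10 and 2.70 against 6.86 and 6.71 in floxed hearts. No role is given for this gene here, and the floxed lines were far apart. Deleted hearts read 2.65, 3.81 and 3.08 against 6.73, 6.59 and 7.78, and cre hearts 3.35 and 3.06. Signal was thus low, below the array medians of 5.61 to 5.66, in every *Gata4* line and cre heart. The difference was -3.88 (SE 0.42, adjusted p = 0.00833) between floxed and -3.85 (adjusted p = 0.00144) between deleted hearts. It was lost without *Gata4* floxed heart 1 or 2 or *Gata6* floxed heart 2 (adjusted p up to 0.0903).

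*Lgr6*, a receptor for R-spondins that enhance Wnt signalling, read 6.30 and 6.26 in *Gata4* floxed and 7.62 and 7.92 in *Gata6* floxed hearts. Deleted hearts read 6.0, 6.24 and 6.16 against 7.88, 7.94 and 7.94, so that no heart of one line reached the other. The cre hearts, at 6.17 and 6.22, were like the *Gata4* line. The differences were -1.49 (SE 0.11, adjusted p = 0.00102) and -1.78 (adjusted p = 0.000125). *Epb41l4a*, of the band 4.1 family that links membrane and cytoskeleton, read 5.53 and 5.52 against 6.59 and 6.57 in floxed hearts and 5.86, 5.84 and 5.95 against 6.75, 6.51 and 6.59 in deleted hearts. Here the cre hearts (6.83 and 6.65) were like the *Gata6* line. The differences were -1.06 (SE 0.10, adjusted p = 0.00283) and -0.73 (adjusted p = 0.00387), and for both genes the call held whichever heart was left out.

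*Nt5dc3*, a 5'-nucleotidase domain protein, read 6.78 and 6.66 against 8.69 and 8.03 in floxed hearts. It was lower in the *Gata4* line by -1.64 on the log2 scale (adjusted p = 0.0362) and by -1.34 (adjusted p = 0.0143) between deleted hearts, with cre hearts at 8.78 and 8.72. *Rps4l*, a ribosomal protein S4-like gene, differed by -0.94 (adjusted p = 0.0327) and -0.76 between floxed and between deleted hearts, and its other probeset by -0.68 and -0.42. *Lars2*, the mitochondrial leucyl-tRNA synthetase, differed by -0.83 (adjusted p = 0.0469) and -0.91. *Ccdc91*, a partner of the GGA sorting adaptors, differed by -0.73 (adjusted p = 0.0205) and -0.62. These 4 were less firmly called. *Lars2* passed in none of the 10 fits that left out a floxed or deleted heart (adjusted p up to 0.226), *Nt5dc3* in 3 (up to 0.183), *Rps4l* in 4 (up to 0.19) and *Ccdc91* in 7, lost without *Gata4* floxed heart 1 or 2 or *Gata6* floxed heart 2 (up to 0.146). *Nt5dc3* was lost without either *Gata4* floxed heart, any *Gata4*-deleted heart, *Gata6* floxed heart 1 or *Gata6*-deleted heart 2, and *Rps4l* without either *Gata4* floxed heart, *Gata4*-deleted heart 1 or any *Gata6*-deleted heart. *Rps4l* also no longer passed between deleted hearts without *Gata4*-deleted heart 2 (adjusted p up to 0.0637).

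Among persisting genes higher in the *Gata4* line, *Snrpe*, an Sm protein of the spliceosomal RNPs, had the smallest p between floxed hearts. It read 8.70 and 8.86 in *Gata4* floxed hearts, and 7.66 and 7.68 in *Gata6* floxed hearts. Deleted hearts read 8.88, 8.92 and 8.77 against 7.63, 7.69 and 7.67. The spread within each line was far below the gap, and cre hearts (8.73 and 8.86) matched the *Gata4* line. The differences were 1.11 (SE 0.09, interval 0.91 to 1.31, adjusted p = 0.0012) and 1.20 (1.03 to 1.36, adjusted p = 0.000125).

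*Ifi202b*, an interferon-inducible DNA-binding protein of the p200 family known to differ among strains, read 4.74 and 4.78 against 3.55 and 3.72 in floxed hearts. Deleted hearts read 5.06, 4.95 and 4.77 against 3.39, 3.35 and 3.49, and cre hearts 4.77 and 4.72. The cre hearts were again at the level of the *Gata4* line. *Ifi202b* was dim, below the array medians of 5.61 to 5.66 in every heart. Its differences were 1.12 (SE 0.11, adjusted p = 0.00283) and 1.52 (adjusted p = 0.000125). The calls of *Snrpe* and *Ifi202b* held whichever heart was left out, with an adjusted p of at most 0.0198 and 0.0488 between floxed hearts.

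*Sun3*, a SUN-domain protein of the nuclear envelope known from sperm, had the largest difference upward. It read 7.0 and 7.01 against 4.81 and 4.69 in floxed hearts, and 5.67, 6.40 and 6.08 against 4.65, 4.17 and 4.88 in deleted hearts. Both cre hearts, at 7.38 and 6.73, read above every *Gata6* line heart. The difference was 2.26 (SE 0.29, adjusted p = 0.0204) between floxed and 1.48 (adjusted p = 0.0194) between deleted hearts. It was lost between floxed hearts without *Gata4* floxed heart 1 or 2 or *Gata6* floxed heart 2 (adjusted p up to 0.13) and between deleted hearts without *Gata4*-deleted heart 2 or 3 or *Gata6*-deleted heart 1 or 2 (up to 0.0829).

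*Car3*, a carbonic anhydrase of muscle and fat, read 8.40 and 8.08 in *Gata4* floxed hearts, and 6.80 and 5.81 in *Gata6* floxed hearts. Deleted hearts read 8.34, 8.52 and 8.37 against 6.67, 6.72 and 6.81, and the cre hearts (7.46 and 7.34) lay between both lines. The differences were 1.93 (SE 0.25, adjusted p = 0.0225) and 1.68 (adjusted p = 0.00778). *Car3* was lost without *Gata4* floxed heart 1 or 2 or *Gata6*-deleted heart 2 (adjusted p up to 0.152). *Plin1* and *Adipoq*, markers of the adipocytes that also express *Car3*, differed by 0.62 (adjusted p = 0.0656) and 0.51 (adjusted p = 0.459) between floxed hearts, of the 8 adipocyte markers 5 had positive and 3 negative differences, and they summed to 10.82 and 10.86 in *Gata4* floxed against 10.86 and 10.96 in *Gata6* floxed hearts. Between deleted hearts 7 of 8 were positive, and *Cidea*, of adipocyte lipid droplets, passed in the other direction (-0.70, adjusted p = 0.0246), chosen after its values were seen. Their part in the *Car3* difference was not tested.

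*Osbpl6*, an oxysterol-binding-related protein, read 7.59 and 7.30 against 6.33 and 6.10 in floxed hearts, a difference of 1.23 (adjusted p = 0.0113), and 1.36 (adjusted p = 0.00115) between deleted hearts. *Npc1*, the lysosomal cholesterol transporter, read 9.60 and 9.47 against 8.35 and 8.55, a difference of 1.09 (adjusted p = 0.0124), and 0.89 between deleted hearts. *Ttc30b*, of the intraflagellar transport machinery, read 8.16 and 7.89 against 6.84 and 7.14, a difference of 1.04 (adjusted p = 0.017), and 1.02 between deleted hearts. In all 3 the lines stood apart in both comparisons, with cre hearts nearer the *Gata6* line (6.42 and 6.37, 8.84 and 8.62, and 7.28 and 7.23). *Pla2g4e*, a cytosolic phospholipase A2, differed by 1.21 (adjusted p = 0.0385) and 0.97. *Cacna1g*, the T-type calcium channel, read 7.80 and 7.93 against 7.09 and 6.85 and differed by 0.89 (adjusted p = 0.032) and 1.06 (adjusted p = 0.00238). It was the only one of 21 ion channel and conduction genes that passed between floxed hearts.

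These calls leaned on single hearts to a different degree. Between floxed hearts *Osbpl6* was lost without *Gata4* floxed heart 1 or *Gata6* floxed heart 2 (adjusted p up to 0.109), *Npc1* without *Gata4* floxed heart 1 or 2 (up to 0.12) and *Ttc30b* without *Gata4* floxed heart 1 (up to 0.122). *Pla2g4e* passed in 2 of the 10 fits, those without *Gata6* floxed heart 1 or 2 (adjusted p up to 0.195 in the others), and *Cacna1g* in 2, those without *Gata6* floxed heart 1 or *Gata6*-deleted heart 3 (up to 0.189).

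**Figure D2:**
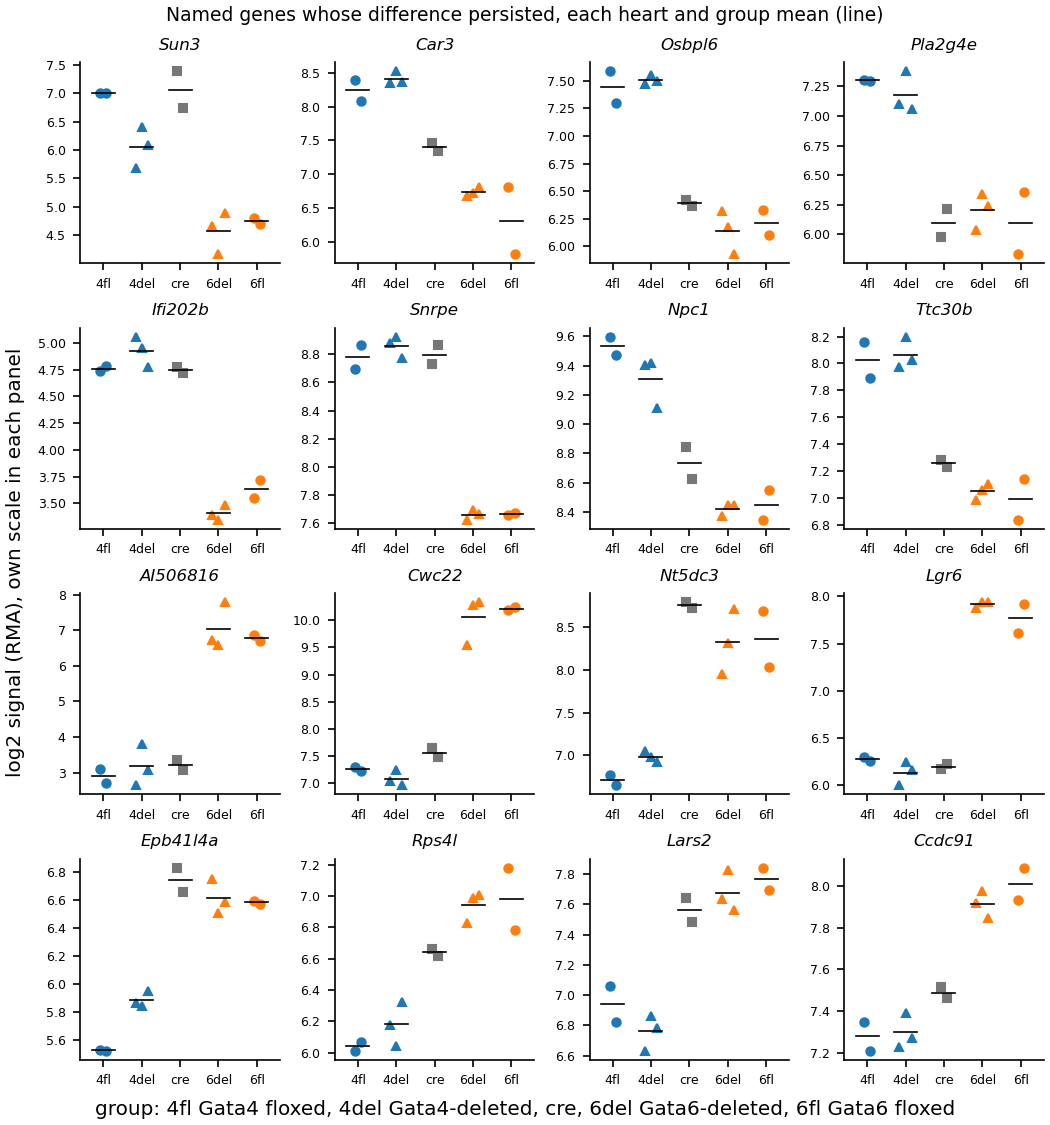
Log2 signal of each of the 12 hearts (points) and the group mean (line) for 16 named genes whose difference persisted, with a scale of its own in each panel. Floxed (circles) and deleted (triangles) hearts of a line share a colour and lie on one side of the other line's, and the cre hearts (squares) lie with the *Gata4* line for *Cwc22*, *Lgr6*, *Snrpe* and *Ifi202b* and near the *Gata6* line for *Nt5dc3*, *Epb41l4a* and *Osbpl6*.

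Except for *Ier3*, the remaining persisting genes named here were picked with their values in view. Higher in the *Gata4* line were *Pla2g7*, which inactivates platelet-activating factor (1.03 between floxed and 0.51 between deleted hearts), and *Serping1*, the inhibitor of complement C1 (1.01 and 0.56). Also higher were *Pxmp2*, a channel of the peroxisome membrane (1.0 and 1.03), *Tmem144* (1.0 and 0.90), and *Rnls*, which encodes renalase (0.93 and 1.08). *Itpr2*, an IP3 receptor (0.88 and 0.90), *Armc2* (0.82 and 1.29), *Rbp4*, the carrier of retinol (0.75 and 0.46), *Pdk1*, a pyruvate dehydrogenase kinase (0.72 and 0.56), and *Rcor2* (0.63 and 0.55) complete the group. Lower were *Ier3*, an immediate early gene (-0.64 and -0.41), *Antxr2*, an anthrax toxin receptor (-0.62 and -0.63), and *Mrpl41*, of the mitochondrial ribosome (-0.60 and -0.59). *Pla2g7* and *Serping1* passed between floxed hearts whichever heart was left out, but *Pla2g7* no longer passed between deleted hearts without any 1 deleted heart (adjusted p up to 0.0659). *Tmem144* was lost only without *Gata4* floxed heart 2 (adjusted p = 0.0518). Both *Rnls* and *Mrpl41* were lost without *Gata4* floxed heart 1 or 2 or *Gata6* floxed heart 2 (adjusted p up to 0.13), *Pxmp2* without these or *Gata6*-deleted heart 2 (up to 0.16) and *Pdk1* without these, *Gata4*-deleted heart 3 or any *Gata6*-deleted heart (up to 0.173). *Rbp4* was lost without the same 3 floxed hearts (up to 0.154) and did not pass between deleted hearts without any 1 deleted heart (up to 0.123). *Itpr2*, *Armc2*, *Rcor2*, *Ier3* and *Antxr2* each passed in 1 of the 10 fits that left out a heart, the one without *Gata6* floxed heart 1 for all but *Rcor2*, which passed only without *Gata4*-deleted heart 2 (adjusted p of the 5 up to 0.255).

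For 2 further persisting genes only a dimmer probeset passed. One *Hspa8* probeset, for the constitutive chaperone of the cytosol, differed by -1.28 (adjusted p = 0.00811) and -1.07, while the brightest differed by -0.07 (adjusted p = 0.826). It read 11.01 and 10.89 in *Gata4* floxed and 12.18 and 12.27 in *Gata6* floxed hearts. The probesets thus disagreed, and signal of a gene with near-identical copies elsewhere cannot be assigned to one copy on an array. For *Slc38a1*, a carrier of neutral amino acids, the passing probeset differed by -1.40 (adjusted p = 0.0298) and -1.02, and the brighter one by -1.28 (adjusted p = 0.0564). Both were lost without *Gata4* floxed heart 1 or 2 or *Gata6* floxed heart 2, with an adjusted p of up to 0.0857 and 0.195, and *Slc38a1* also without *Gata4*-deleted heart 2 or 3 or *Gata6*-deleted heart 2. *Slc38a1* no longer passed between deleted hearts without *Gata4*-deleted heart 1 or *Gata6*-deleted heart 3 (adjusted p up to 0.087). The other 12 persisting probesets had no symbol (7) or several (5).

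Some persisting genes were neighbours. In the gene order of GRCm38.p6, 6 of the 32 lay in 2 runs with at most 20 measured genes between members, a distance chosen after the values were seen. On chromosome 2 *Ttc30b*, *Osbpl6* and *Cwc22* followed each other with 4 and 8 measured genes between them, the first pair higher and *Cwc22* lower in the *Gata4* line. On chromosome 6 *Itpr2*, *Ccdc91* and *Rps4l* followed each other with 15 and 3 measured genes between them. None of the 15 genes that did not persist lay in such a run, and the 49 genes were spread over 18 chromosomes. How many genes fall in such runs by chance alone was not tested, for the 32 as for the 15. *Npc1* was the 5th measured gene from *Gata6* on chromosome 18. It was the only one of the 40 measured genes nearest *Gata6* that passed between floxed hearts, and none of the 40 nearest *Gata4* on chromosome 14 did.

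Genes placed between were *Pck1*, the rate-limiting enzyme of gluconeogenesis, and *Slc1a4*, a carrier of neutral amino acids. *Pck1* read 6.45 and 6.23 against 5.19 and 5.50 in floxed hearts, and 6.25, 5.98 and 6.08 against 5.69, 5.31 and 5.40 in deleted hearts. The lines did not overlap, with a difference of 0.99 (adjusted p = 0.0486) and then 0.64 (interval 0.35 to 0.93, adjusted p = 0.0555). *Slc1a4* read 6.25 and 6.44 against 5.46 and 5.28, a difference of 0.97 (adjusted p = 0.0234) and then 0.50 (0.26 to 0.74, adjusted p = 0.0738). *Pck1* passed between floxed hearts in 1 of the 10 fits that left out a heart, without *Gata6*-deleted heart 1 (adjusted p up to 0.231 in the others), and there it also passed between deleted hearts (adjusted p = 0.0423). *Slc1a4* passed in 6, lost without *Gata4* floxed heart 1 or 2, *Gata4*-deleted heart 2 or *Gata6* floxed heart 2 (up to 0.158). Of those 6 fits only 2 kept *Slc1a4* in this class. Its difference was said not to persist without *Gata4*-deleted heart 3, *Gata6* floxed heart 1 or *Gata6*-deleted heart 1 or 2. The 2 other probesets placed between had several symbols.

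The clock repressors *Ciart* and *Per1* were lower in *Gata4* floxed than in *Gata6* floxed hearts and did not pass between deleted hearts. *Ciart* read 6.81 and 7.08 in *Gata4* floxed hearts, and 8.93 and 8.92 in *Gata6* floxed hearts. The other 8 hearts were all high, with 9.0 and 8.88 in cre, 8.88, 8.54 and 8.41 in *Gata4*-deleted and 8.68, 8.83 and 8.89 in *Gata6*-deleted hearts. *Gata4* floxed hearts therefore lay below every other heart, including those of their own line. The difference was -1.98 (SE 0.15, interval -2.33 to -1.64, adjusted p = 0.00102) between floxed and -0.19 (-0.47 to 0.09, adjusted p = 0.631) between deleted hearts, a change of 1.80 (adjusted p = 0.0423). The floxed call held whichever heart was left out (adjusted p of at most 0.0198), and a second, dimmer probeset gave -1.51 (adjusted p = 0.00337) and -0.29 (-0.56 to -0.03). At that dimmer probeset the change did not pass (adjusted p = 0.212) and the lines did not overlap. At the brighter probeset the call on the change held only without *Gata6*-deleted heart 1, with an adjusted p of 0.064 to 0.174 without any other heart. Probe sequences were not examined here, so signal from a near-identical copy of *Ciart* could not be told apart.

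*Per1*, a period gene, read 6.71 and 6.86 in *Gata4* floxed hearts, and 8.04 and 7.74 in *Gata6* floxed hearts. It read 8.35 and 8.04 in cre, 8.25, 8.24 and 8.20 in *Gata4*-deleted and 7.97, 7.95 and 7.88 in *Gata6*-deleted hearts. Again both *Gata4* floxed hearts lay below the other 10. The difference was -1.11 (SE 0.13, interval -1.39 to -0.83, adjusted p = 0.0106) between floxed and 0.29 (0.06 to 0.52, adjusted p = 0.285) between deleted hearts, and it changed by 1.40 (adjusted p = 0.0481). *Per1* was lost between floxed hearts without *Gata4* floxed heart 1 or 2 (adjusted p up to 0.109), and its change passed only without *Gata6*-deleted heart 1 (adjusted p 0.0942 to 0.229 without any other heart).

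Of 15 clock repressor and output genes, 2 were lower (*Ciart* and *Per1*), none was higher and 13 did not pass, where 0.226% of the 19938 genes passed. Their median difference was -0.44 between floxed and 0.02 between deleted hearts, against 0.0154 and 0.0125 over all genes. At an unadjusted p under 0.05, 12 of the 15 (80%) differed between floxed hearts, against 9.71% of all genes. *Gata4* floxed hearts lay below all other hearts in 9 of the 15 (2.40% of all genes) and above them in *Nr1d1* (3.07%). *Per2* (-0.85) and *Per3* (-0.61), both period genes, missed the threshold with an adjusted p of 0.0503. Further values were -0.44 for *Dbp* (adjusted p = 0.0717) and -0.53 for *Hlf* (adjusted p = 0.101), PAR-domain factors that bind D-boxes, and -0.60 for *Wee1*, a cell cycle kinase under clock control. *Cry1* and *Cry2*, the cryptochromes, were at -0.13 and -0.10. In the opposite direction stood *Nr1d1*, which represses *Arntl* (0.59, adjusted p = 0.12), and *Arntl* itself.

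*Arntl* read 6.34 and 6.45 in *Gata4* floxed and 5.69 and 5.22 in *Gata6* floxed hearts, and 4.98 to 5.36 in the other 8. The *Gata4* floxed hearts were thus the highest of all 12. The difference of 0.94 (interval 0.60 to 1.27) missed the threshold (adjusted p = 0.0503) and was -0.16 between deleted hearts. None of the 4 measured activators and partners passed. *Clock* differed by 0.22 and *Nfil3*, a repressor that binds D-boxes, by 0.67 (adjusted p = 0.462 and 0.338), and *Rora*, an activator of *Arntl*, by -0.06 (adjusted p = 0.902). The 15 repressor and output genes had 12 or 13 negative differences whichever floxed heart was left out, with a median of -0.592 to -0.366, and 13 negative ones after quantile normalization or median centring.

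**Figure D3:**
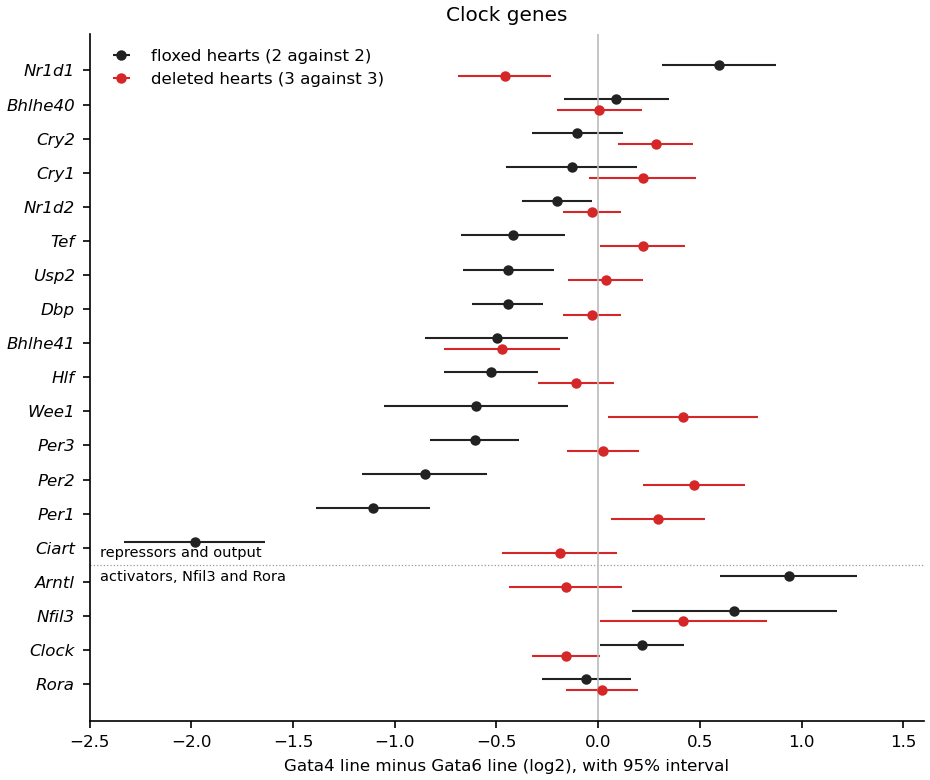
Log2 difference between the lines with its 95% interval for 19 clock genes, between floxed hearts (black) and between deleted hearts (red). *Ciart*, *Per1*, *Per2* and *Per3* lie left of 0 between floxed hearts and near or right of 0 between deleted hearts, while *Arntl* and *Nr1d1* lie right of 0 between floxed hearts.

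*Tsc22d3*, the glucocorticoid-induced leucine zipper, passed in both comparisons but in opposite directions. It read 7.17 and 7.22 in *Gata4* floxed and 7.84 and 7.83 in *Gata6* floxed hearts. It read 8.22, 8.27 and 8.19 in *Gata4*-deleted, 7.83, 7.85 and 7.74 in *Gata6*-deleted and 8.00 and 7.84 in cre hearts. *Gata4* floxed hearts were the lowest of all and *Gata4*-deleted hearts the highest. The difference was -0.64 (SE 0.08, adjusted p = 0.0204) between floxed and 0.42 (0.27 to 0.57, adjusted p = 0.0195) between deleted hearts, a change of 1.06 (adjusted p = 0.0423; 0.0947 to 0.154 without any 1 heart other than *Gata6*-deleted heart 1, where it passed). The floxed call was lost without *Gata4* floxed heart 1 or 2 or *Gata6* floxed heart 2 (adjusted p up to 0.13). The deleted call was lost without any 1 deleted heart (adjusted p up to 0.0921).

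*Tsc22d3* was the only one of 21 glucocorticoid response genes that passed between floxed hearts, and 20 did not pass. Of the 21, 16 had negative differences (median -0.20) between floxed and 16 had positive ones (median 0.27) between deleted hearts. Over all 19938 genes, 9151 were negative between floxed and 10783 positive between deleted hearts. At the negative end stood *Mt2*, a metallothionein (-1.77, adjusted p = 0.0813), and *Zbtb16*, a zinc finger repressor (-1.01, adjusted p = 0.253). Their deleted differences were -0.98 and 0.71. *Cebpb* differed by -0.48 and 0.27, and *Fkbp5*, a classical glucocorticoid target, by -0.29 and 0.61. *Gata4* floxed hearts lay below all other hearts in 5 of the 21 (2.40% of all genes). The floxed median was -0.0937 without *Gata4* floxed heart 1.

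*Aqp1*, the water channel of endothelium and red cells, read 9.28 and 8.75 in *Gata4* floxed hearts, and 10.30 and 10.24 in *Gata6* floxed hearts. It read 9.95 and 9.72 in cre, 9.97, 10.03 and 10.25 in *Gata4*-deleted and 10.11, 10.06 and 10.31 in *Gata6*-deleted hearts. Both *Gata4* floxed hearts lay below the other 10. The difference was -1.26 (SE 0.17, adjusted p = 0.0246) between floxed and -0.08 (-0.39 to 0.24, adjusted p = 0.888) between deleted hearts, and its change of 1.18 did not pass (adjusted p = 0.352). *Aqp1* was the only one of 15 endothelial markers that passed. The 15 summed to 13.06 and 13.11 in *Gata4* floxed and 13.16 and 13.09 in *Gata6* floxed hearts, with a median difference of 0.01, and the red blood cell genes were higher in *Gata4* floxed heart 2, the heart with the lower *Aqp1*. *Aqp1* was lost without *Gata4* floxed heart 2, *Gata6* floxed heart 2, *Gata4*-deleted heart 2 or *Gata6*-deleted heart 1 or 2 (adjusted p up to 0.124).

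Of the myeloid genes, *Pld4*, *Mpeg1* and *Tlr6* were higher in *Gata4* floxed hearts and did not persist. *Pld4*, an exonuclease of their endolysosomes, read 6.77 and 6.88 against 5.98 and 6.04 in floxed hearts, and 6.05 to 6.41 in the other 8. Its difference was 0.82 (SE 0.09, adjusted p = 0.00616) and then 0.05 (-0.10 to 0.21, adjusted p = 0.837). *Mpeg1*, the macrophage protein perforin-2, read 6.84 and 7.16 against 6.07 and 5.80, with *Gata4*-deleted hearts at 6.61, 6.40 and 6.25 and *Gata6*-deleted hearts at 6.02, 6.01 and 5.90. The lines did not overlap, but the difference fell from 1.07 (adjusted p = 0.0298) to 0.44 (0.16 to 0.72, adjusted p = 0.169). *Tlr6*, a toll-like receptor, differed by 0.70 (adjusted p = 0.0215) and 0.15. For none of these 3 did the change of the difference pass (adjusted p = 0.169, 0.676 and 0.468), and the interval of the deleted difference left out 0 for *Mpeg1*.

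Macrophage markers were measured beside them. None of the 16 markers passed, and 11 had positive differences, as had 54.1% of all genes. The 16 summed to 11.71 and 11.93 in *Gata4* floxed and 11.85 and 11.63 in *Gata6* floxed hearts. *Ptprc*, the pan-leukocyte CD45, differed by 0.41 and *Cd163*, of resident macrophages, by -0.38, neither passing. Without *Gata4* floxed heart 2, 8 of 16 were positive, without *Gata6* floxed heart 2, 6, and without *Gata6* floxed heart 1, 13. Between deleted hearts 1 of 16 was positive. The part of myeloid cell number in *Pld4*, *Mpeg1* and *Tlr6* was not tested. *Pld4* was lost without *Gata4* floxed heart 2 (adjusted p = 0.0743) and *Tlr6* without *Gata4* floxed heart 1 or 2 or *Gata6* floxed heart 2 (up to 0.148). *Mpeg1* passed in 3 of the 10 fits that left out a heart, those without *Gata4*-deleted heart 1 or 3 or *Gata6* floxed heart 1 (up to 0.188 in the others).

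In other genes *Gata6* floxed hearts lay below all others, in some of them with *Gata4* floxed hearts above all others. *Rhobtb3* read 7.19 and 7.14 in *Gata6* floxed hearts and 8.35 and 8.33 in *Gata4* floxed hearts. *Gata6*-deleted hearts, at 7.73, 8.20 and 7.97, were above their own floxed line, and *Gata4*-deleted hearts read 8.14, 8.33 and 8.27. The difference was 1.18 (SE 0.14, adjusted p = 0.0122) and then 0.28 (0.03 to 0.53, adjusted p = 0.373). *Idh2*, the mitochondrial NADP-dependent isocitrate dehydrogenase, read 11.51 and 11.43 in *Gata6* floxed hearts, against 12.19 and 12.01 in *Gata4* floxed hearts and 11.94 to 12.17 in the other 8. Its difference was 0.63 (adjusted p = 0.0225) and then 0.07 (-0.08 to 0.23). *Lzic*, a relative of the β-catenin inhibitor ICAT, read 7.62 and 7.72 in *Gata6* floxed hearts, below all others, and 8.88 and 8.76 in *Gata4* floxed hearts, above all others. Its difference was 1.15 (adjusted p = 0.0225) and then 0.11. *Tspan18*, a tetraspanin (0.86 and 0.07), *Sfrp1*, a secreted Wnt inhibitor (0.83 and 0.23), and *Pltp*, the phospholipid transfer protein (0.60 and 0.19), were also lowest in *Gata6* floxed hearts. For *Tspan18* (7.17 and 7.06) and *Pltp* (9.37 and 9.34) the *Gata4* floxed hearts lay above all others too. *Pltp* in *Gata6* floxed heart 1 (8.7987) was nearly level with cre heart 2 (8.7995).

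These calls rested on few hearts too. *Rhobtb3* and *Pltp* were lost without *Gata4* floxed heart 1 or 2 or *Gata6* floxed heart 2 (adjusted p up to 0.11 and 0.13). *Lzic* was lost without these or *Gata6*-deleted heart 2 (up to 0.154), and *Idh2* without these, *Gata4*-deleted heart 3 or *Gata6*-deleted heart 2 (up to 0.142). *Tspan18* passed only without *Gata6* floxed heart 1 (up to 0.223 in the others) and *Sfrp1* only without that heart or *Gata4*-deleted heart 1 (up to 0.248). *Pltp* was chosen after its values were seen, as were *Fam220a* (0.56 and -0.03) and the chemokine *Ccl19* (-0.68 and -0.23), for which a dimmer probeset passed. *Fam220a* was lost in 7 of the 10 fits (adjusted p up to 0.165) and *Ccl19* in 9 (up to 0.23), all those without a floxed heart except *Gata6* floxed heart 1 for *Fam220a*. The other 10 probesets that did not persist had no symbol (8) or several (2).

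Over the 26 probesets that did not persist, both *Gata4* floxed hearts lay outside the range of all other hearts in 19 (4.69% of all probesets) and both *Gata6* floxed hearts in 16 (3.34%). The definition of the class favours such positions, so these counts are no separate result. The 95% interval of the deleted difference left out the floxed difference in all 26, against 14 of the 51 persisting ones, and the definition of the classes favours this order. The change of the difference passed at *Ciart*, *Per1*, *Tsc22d3* and 2 unnamed probesets of the 26. For the other 21 the change did not pass, which shows neither that their difference persisted nor that it was lost. In 10 of the 26 the 5 hearts of one line lay on one side of the 5 of the other, against 4.73% of all probesets.

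**Figure D4:**
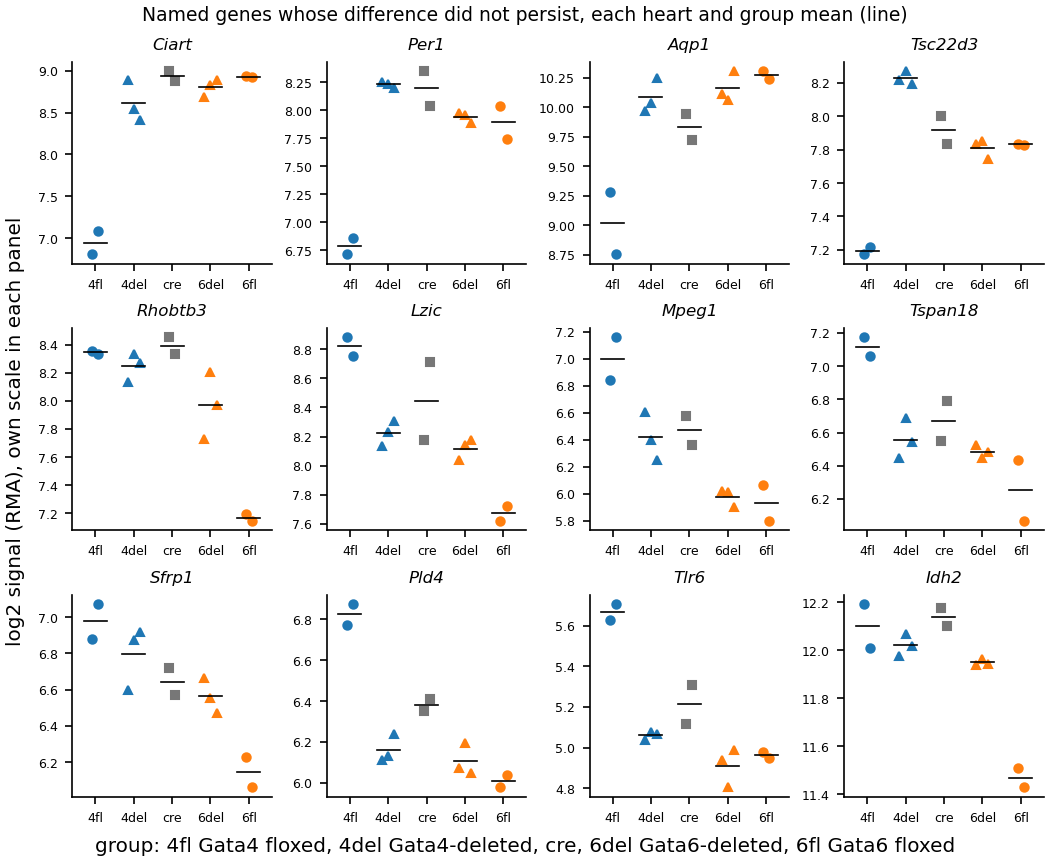
Log2 signal of each of the 12 hearts (points) and the group mean (line) for 12 named genes whose difference did not persist, with a scale of its own in each panel. *Gata4* floxed hearts lie apart for *Ciart*, *Per1*, *Aqp1* and *Tsc22d3*, and *Gata6* floxed hearts for *Rhobtb3*, *Lzic* and *Idh2*.

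Cre hearts, which belong to neither floxed line, gave a further reading. Of the 51 persisting probesets, both cre hearts were nearer the *Gata4* floxed mean in 27 and nearer the *Gata6* floxed mean in 21, and they were split in 3. Of the 26 that did not persist the counts were 7, 12 and 7. The 51 held only 45 distinct sets of values, because the *Cwc22* probesets with the same values, all among the 27, were counted singly. Over all probesets both were nearer *Gata4* floxed in 32.4% and nearer *Gata6* floxed in 28.9%. For *Ciart*, *Per1* and *Tsc22d3* both cre hearts were nearer *Gata6* floxed hearts.

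The other pathway lists held few passing genes. *Ier3* was the only one of 19 immediate early genes that passed, *Pck1* the only one of 17 genes of lipid synthesis and insulin response and *Cwc22* the only one of 10 genes known to vary between mouse strains. Among the last, *H2-Ea*, a class II gene that some inbred strains do not express, read 4.88 and 4.69 in *Gata4* floxed and 6.29 and 7.05 in *Gata6* floxed hearts. The lines did not overlap, but -1.89 did not pass between floxed hearts (adjusted p = 0.142) and -2.47 did between deleted hearts (adjusted p = 0.0093). *H2-Eb1*, its partner chain, differed by -1.09 (adjusted p = 0.195) and -1.51 (adjusted p = 0.0154). *Wdfy1* (0.55 and 1.04) likewise passed only between deleted hearts, and *Pttg1* differed by -2.64 (adjusted p = 0.259) and -1.32, with *Gata6* line hearts spread from 5.95 to 8.84. That *H2-Ea*, *H2-Eb1* and *Wdfy1* passed only between deleted hearts does not show that the floxed lines were alike in them.

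No gene passed between floxed hearts among 18 of fatty acid use and fasting, 18 of detoxification, 28 angiogenic factors, 22 of interferon response and antigen presentation, 17 of the cell cycle, 17 GATA factors and partners, 12 of cardiac stress and 11 of heat shock. Between floxed hearts at an unadjusted p under 0.05, the first of these gave 27.8%, the detoxification list 38.9%, the angiogenic factors 28.6%, the interferon list 45.5% and the cell cycle list 0%. The GATA list gave 17.6%, the cardiac stress list 8.33% and the heat shock list 27.3%, against 9.71% of all genes. *Pdk4*, a fasting-induced kinase that holds back glucose oxidation, differed by 1.21 (adjusted p = 0.149), and *Ucp3*, an uncoupling protein, by 1.19. *Cyp2e1*, a cytochrome P450, differed by 1.17 (adjusted p = 0.0759) and by 1.08 (adjusted p = 0.019) between deleted hearts, and *Adh1*, an alcohol dehydrogenase, by -1.47 (adjusted p = 0.0811) and 0.14. *Scd1*, a fatty acid desaturase, differed by 0.84 (adjusted p = 0.0773) and 1.24 (adjusted p = 0.00238). *Irf7*, an interferon regulatory factor, differed by 1.14 (adjusted p = 0.178) and 0.25. *Nppa*, the atrial natriuretic peptide, differed by -0.64 and -0.67, neither passing.

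The cell cycle list turned with 1 heart. Of its 17 genes 16 had positive differences (median 0.22), but without *Gata4* floxed heart 2 only 5 did, with a median of -0.19. *Top2a* read 4.99 and 6.43 in *Gata4* floxed and 5.39 and 4.99 in *Gata6* floxed hearts, and *Alas2*, an enzyme of heme synthesis in red cells, 7.03 and 8.59 against 7.30 and 7.39. Both were thus high in that single heart. Fibroblast and matrix genes had 16 of 17 positive differences (median 0.23) and none passing, with *Dpt* at 0.57 and *Loxl1* at 0.53, and summed to 13.65 and 13.88 against 13.62 and 13.44. Between deleted hearts 6 of 17 were positive. Of 22 interferon response genes 18 were positive between floxed (median 0.32) and 17 between deleted hearts (median 0.21). Over all 19938 genes, 10787 (54.1%) were positive between floxed and 10783 between deleted hearts.

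**Figure D5:**
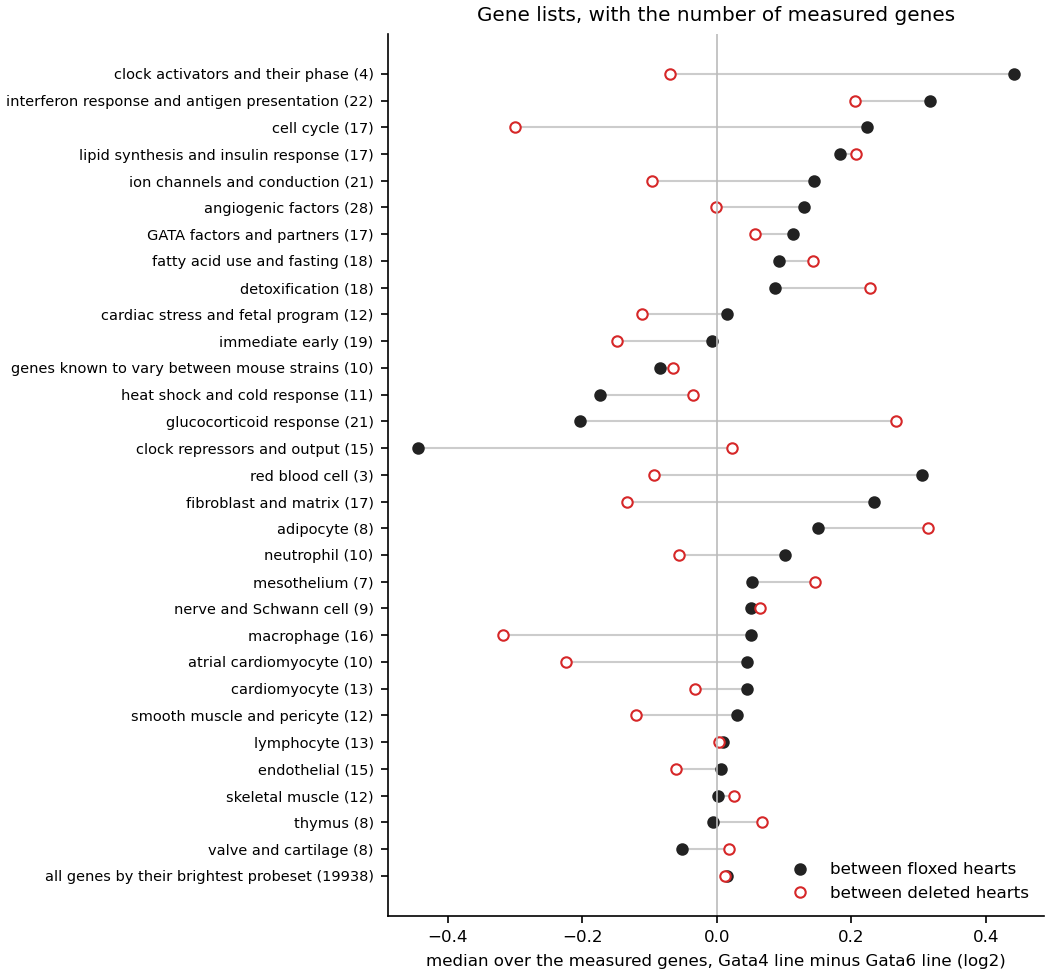
Median log2 difference between the lines over the measured genes of each list (number in brackets), between floxed hearts (filled) and between deleted hearts (open), with all 19938 genes at the foot. The clock repressor list lies at -0.44 between floxed hearts and 0.02 between deleted hearts, and the glucocorticoid list at -0.20 and 0.27.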

How the data were processed

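Heart RNA of 12 mice was measured on 1 array each. The deposited log2 values had been made by the authors with RMA (background correction, normalization between arrays and a summary per probeset; named in the submitters' processing notes, with version and annotation not given in the sources used here). They ran from 1.40 to 14.1 and were used as deposited for all 35557 probesets. A deposited table of ratios has 12 columns whose headings match no sample's labels, and these were left out. Symbols came from the platform's probe table, which held 23410 of the probesets and lacked 12147. It gave a single symbol for 21789, naming 19938 genes, and more than 1 for 1621. Genes are given by their probeset with the highest mean unless stated. The number of arrays limits the precision, and nothing says that hearts came from separate litters.

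One group-means model was fitted to the 12 arrays with limma 3.58.1 in R 4.3.3 (7 residual and 2.50 prior degrees of freedom, prior SD 0.124). Contrasts were *Gata4* floxed minus *Gata6* floxed, *Gata4*-deleted minus *Gata6*-deleted, whose means share no heart with the first, and the change from one to the other. Each contrast used the same spread per probeset, taken from the 12 arrays. Tests were two-sided, adjusted by Benjamini-Hochberg over all probesets, with a threshold of 0.05. A summed list signal is the log2 of the summed linear signals of its genes. On simulated data for the floxed comparison (20 runs on 35557 probesets, 200 changed in each), 2-fold changes present in both pairs of groups were found in 71.2% and then said to persist in 96.9%, and changes of 1.5-fold in 21.7% and 77.4%. Changes in floxed hearts only were found in 70.8% (2-fold) and 22.6% (1.5-fold), and none of them was said to persist. Of all simulated calls 5.09% were false. The simulated noise was normal and independent, with no state shared by the probesets of a heart. These shares therefore describe the procedure on such noise and not the accuracy of the calls made here.

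Named were the 8 highest and 8 lowest genes of each class, *Gata4*, *Gata6*, list members that passed and up to 2 at each end of a list, and any others, in the clock list too, were chosen after their values were seen. Members, lists and rules were chosen with earlier results of these data known. Alternatives were leaving out each floxed or deleted heart (never a cre heart), a block for the replicate number, other thresholds, gene means, another prior, the brighter probesets only, median centring, quantile normalization, the floxed arrays alone and the test named in the methods, a plain t-test.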

Additional observations from a re-analysis of the deposited data

Results flagged for a closer look

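At 6 probesets the difference between the lines itself differed between floxed and deleted hearts (limma, adjusted p under 0.05 for the change). For *Ciart* it changed by 1.8 on the log2 scale, from -1.98 to -0.189 (adjusted p = 0.0423), for *Per1* by 1.4, from -1.11 to 0.294 (adjusted p = 0.0481), and for *Tsc22d3* by 1.06, from -0.638 to 0.418 (adjusted p = 0.0423). For *AW551984*, which did not differ beyond the threshold between floxed hearts, it changed by 2.1, from -0.0448 to 2.06 (adjusted p = 0.0423). One unnamed probeset changed by 1.45, from -0.69 to 0.757 (adjusted p = 0.0175), and another by 2.55, from -2.39 to 0.162 (adjusted p = 0.0423). Without *Gata6*-deleted heart 1, 63 probesets passed this test, *Ciart*, *Per1* and *Tsc22d3* among them. Without any other 1 heart 0 or 1 passed, and these 3 did not. No group held 4 or more hearts, so single outlying hearts could not be tested.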

How the results depend on the processing

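The 81 probesets that differed between floxed hearts, the 51 that persisted and the 6 whose difference changed became 82, 51 and 2 after quantile normalization and 71, 44 and 5 after median centring. They were 201, 110 and 5 among the brighter probesets (those above the median), 138, 79 and 7 with a trend and robust prior, 179, 86 and 11 over gene means and 177, 98 and 8 at an adjusted p under 0.1. With an added log2 difference of 0.5 they were 80, 48 and 6, and with persistence at an unadjusted p under 0.05, 64 persisted. The replicate number as a block gave 35, 27 and 0, with 7 of the 26 that did not persist still called and 18 of the 49 genes still passing. Deviations of same-numbered hearts correlated at -0.0971 to 0.109, so the numbers were not taken to pair the hearts. The 4 floxed arrays alone gave 13, and with the methods' t-test 2293 probesets had an unadjusted p under 0.05 and 0 passed after Benjamini-Hochberg. Leaving out 1 heart gave 21 to 383, 16 to 116 and 0 to 63. Counting probesets with the same values once gave 75 and 45, and only those with 1 symbol 57 and 39, both added after the data were seen, as were list counts with a heart left out. The share that persisted ran from 30.3% to 81%. Of 927 alternative values of the 49 passing genes, 625 kept direction and call, 302 kept direction only and none reversed. Of the 26 probesets that did not persist, 1 came to persist with a trend and robust prior, 1 at an adjusted p under 0.1 and 9 with persistence by unadjusted p, the last including *Mpeg1*, *Pltp*, *Rhobtb3*, *Ccl19* and the dimmer *Ciart* probeset, and 0 did in the other settings run on probesets. Among 925 values of genes that did not pass, 44 passed under some alternative. A further 5 reversed, and these 5 all came from fits without 1 heart. The ranges were -0.2202 to 0.01501 for *Cry2*, -0.3004 to 0.03832 for *Cry1*, -0.3211 to 0.08138 for *Gata6*, -0.1933 to 1.238 for *Top2a* and -0.3126 to 1.253 for *Alas2*. The median standard error was 0.133 between floxed and 0.108 between deleted hearts.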
